A study of Mus musculus with 10 samples.

Results

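The genes described here are markers of the pancreatic duct: the keratins Krt19 and Krt7, the transcription factors Sox9 and Onecut1, the transport genes Cftr and Car2, and the secreted and surface genes Spp1, Muc1 and Prom1. They were chosen by name as a list of 9 genes, with earlier results of these data known. Each gene was read by its probe that carries no other gene symbol and has the highest mean over the 10 arrays. Of these, 8 genes had such a probe among 18069 genes on the array. Spp1, which encodes osteopontin, has no probe named for it alone in the annotation used and was not analysed here.

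The study asked what Pdx1 and Ngn3 do when they are switched on in endoderm made from mouse embryonic stem (ES) cells. Dox(+) EBs were embryoid bodies of tet-pdx1/ngn3 cells, derived from the Ainv18 ES line, in which doxycycline (Dox) drives both factors from 1 bicistronic cassette, and they received 1 µg/ml Dox from day 4 and were collected on day 13. Dox(−) EBs were the same cells, grown alike but without Dox, and both EB groups had activin A from day 2, to which BMP4 and bFGF were added on day 4, with suspension culture from day 6. The dose was 50 ng/ml for activin A and for BMP4, and 10 ng/ml for bFGF. The other groups were βTC6 cells, a mouse insulinoma line, whole islets, which the study's text calls adult, while a column heading of its supplement sets E15.5 beside them and the labels give no age or strain, and whole E15.5 pancreas, all without treatment. Each group had 2 arrays labelled as biological replicates. Nothing in the sources used here says whether they came from separate cultures or animals, so p-values measure the spread between these arrays, which may be technical.

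Ducts carry the secretions of acinar cells out of the pancreas and add fluid rich in bicarbonate. In the embryo the ducts come from the trunk of a branching epithelium that is marked by Sox9 and Onecut1, and Ngn3 appears in cells of this trunk that leave it to become endocrine cells. None of these genes is restricted to ducts: keratins 7 and 19 occur in many simple epithelia, Onecut1 in liver, Sox9 in cartilage and neural tissue, Car2 in red cells, and Muc1 also at the apical face of acinar cells.

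Levels are the authors' scaled intensities, on which the median probe of each array stands at 1, and a level below 0.27 was set to 0.27. A probe that the scanner software flagged as not above its surroundings is called at background. Between 66.6% and 75.0% of 34967 probes were above background per array, and no duct gene was saturated. The arrays' slide numbers formed 3 ranges, of which 1 held both EB groups, 1 held βTC6 cells and islets, and 1 held E15.5 pancreas, so in a comparison across ranges the array range and the tissue cannot be told apart. The probes of the induced genes did not separate the EB groups: Pdx1 was at background on all 4 arrays, and Neurog3, the mouse gene of Ngn3, read 0.447 and 0.557 in Dox(+) EBs, against 0.458 and 0.52 in Dox(−) EBs. Both probes were dim in every group. They were highest in βTC6 cells, at 0.776 and 0.598 for Pdx1 and 0.687 and 0.615 for Neurog3. The paper stained Pdx1 and Ngn3 protein after Dox as positive controls, in later EBs of another culture protocol. Where these probes lie relative to the cassette is not given in the sources used here, and 1 label of the EB arrays names activated Notch4 instead. The summed level of 8 endocrine genes was 536 and 460 in Dox(+) EBs, against 5.82 and 5.81 in Dox(−) EBs, so the EB groups stood far apart by these genes. These are bulk samples, so fewer cells of a type and less RNA per cell cannot be told apart.

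Promoters of 6 of the 9 genes were in the RefSeq table used here (GRCm38.p6). The 3 shown are those of Krt7 and Onecut1, which both fell with Dox, and of Muc1, for which no Dox difference passed the test. Each is the 250 bases before the start of the gene on the plus strand, at chr15:101412153-101412402 for Krt7, chr9:74861671-74861920 for Onecut1 and chr3:89228806-89229055 for Muc1. Capitals mark every E-box, CANNTG, the short motif read by basic helix-loop-helix proteins such as Ngn3, which reads the same on both strands.
Krt7: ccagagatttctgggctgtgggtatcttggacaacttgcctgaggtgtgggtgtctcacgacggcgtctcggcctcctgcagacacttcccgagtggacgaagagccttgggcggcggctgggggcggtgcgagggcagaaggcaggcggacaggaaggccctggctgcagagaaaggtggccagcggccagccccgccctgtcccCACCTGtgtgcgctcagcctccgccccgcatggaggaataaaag
Onecut1: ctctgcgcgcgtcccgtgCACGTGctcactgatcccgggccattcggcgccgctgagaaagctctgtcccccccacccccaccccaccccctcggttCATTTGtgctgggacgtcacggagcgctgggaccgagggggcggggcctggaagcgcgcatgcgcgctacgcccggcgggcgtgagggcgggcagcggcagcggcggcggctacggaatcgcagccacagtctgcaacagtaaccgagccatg
Muc1: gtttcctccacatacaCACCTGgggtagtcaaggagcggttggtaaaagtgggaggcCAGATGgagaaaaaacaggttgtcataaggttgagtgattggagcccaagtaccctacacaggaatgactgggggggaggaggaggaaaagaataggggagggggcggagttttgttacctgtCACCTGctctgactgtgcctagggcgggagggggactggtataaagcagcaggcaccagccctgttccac

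Krt7 held 1 E-box, beginning 44 bases before its start. Onecut1 held 2 E-boxes, beginning 232 and 153 bases before its start, and Muc1 held 3, beginning 234, 193 and 70 bases before its start. An E-box was present in 66.2% of all 32851 promoter windows of this length, so a window that holds one is common. No match in the 3 windows overlapped another E-box or a match to the TATA box TATAAA, of which Muc1 held 1 at 31 bases before its start and which occurred in 12.4% of all windows on either strand. The Onecut core ATCAAT, read on both strands, was in none of the windows of these 6 genes, against 6.72% of all windows. A match is only a match of letters.

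With Pdx1 and Ngn3 induced, 4 of the 8 duct genes fell and none rose. Krt19 fell the most, with a log2 difference of -3.05, followed by Onecut1, Car2 and Krt7, whereas Sox9, Muc1, Prom1 and Cftr did not pass the test. Across all probes tested, 43.2% passed in this comparison, 20.7% higher and 22.5% lower, so that a large part of the array differed between the EB groups. The median difference of the 8 genes was -0.42, against -0.03 over all 28193 probes.

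**Figure D1:**
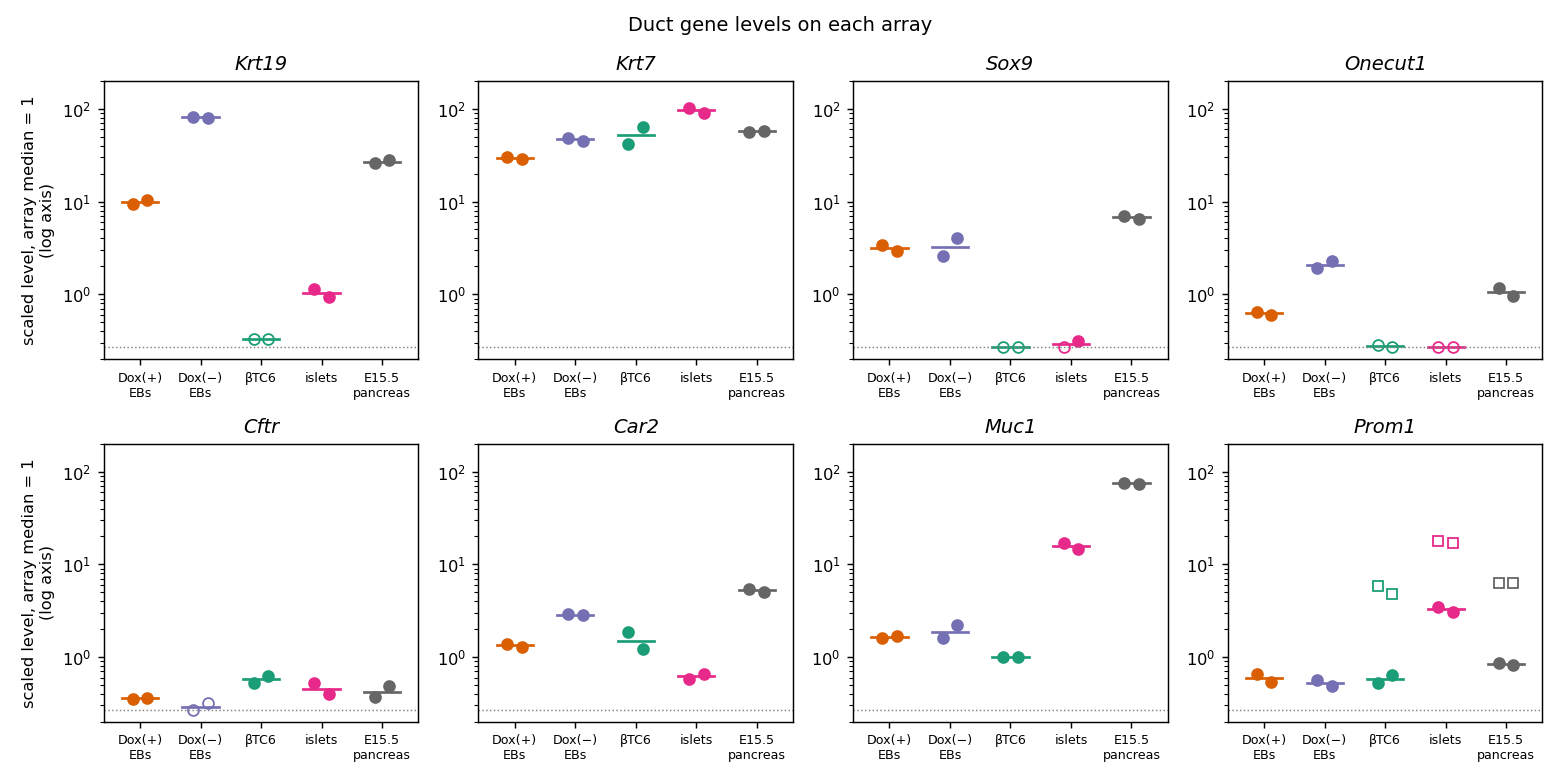
Scaled level of each duct gene on each array (log axis, array median = 1) in the EBs with and without Dox, the βTC6 line, islets and E15.5 pancreas. Points are arrays, open circles are arrays at background, bars are geometric means of 2 arrays, the dotted line is the floor of 0.27, and open squares are a second Prom1 probe that was masked in the EBs. Krt19 lies lower in Dox(+) than in Dox(−) EBs, while the Sox9 points of the EB groups overlap.

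Krt19 encodes an acidic keratin widely used to identify adult duct cells. Its level was 9.31 and 10.4 in Dox(+) EBs, against 81.9 and 80.5 in Dox(−) EBs. It was 8.26-fold lower with Dox (log2 difference -3.05 ± 0.11 SE, limma adjusted p = 1.04e-08), and only 0.419% of the probes tested had a more negative difference. The groups did not overlap, and replicates within a group differed little beside the gap between groups.

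Krt7 encodes a basic keratin of simple and glandular epithelia. It was at 30.5 and 28.9 in Dox(+) EBs, against 49.0 and 44.9 in Dox(−) EBs, again without overlap. The difference of -0.66 ± 0.16 (SE), or 1.58-fold lower, passed the test (adjusted p = 0.00732), but 12.0% of the probes tested had a more negative one. This call was lost without Dox(−) replicate 1 (adjusted p = 0.0583) and without Dox(+) replicate 2 (adjusted p = 0.0628). It was also lost with a floor of 1 (adjusted p = 0.0553) and with no filter on background (adjusted p = 0.0609).

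Onecut1, also called HNF6, is a factor of the embryonic trunk epithelium and of hepatocytes that acts upstream of Ngn3 in the mouse pancreas. It stood at 0.641 and 0.602 in Dox(+) EBs, against 1.92 and 2.26 in Dox(−) EBs. It was 3.35-fold lower with Dox (log2 difference -1.74 ± 0.16 SE, adjusted p = 8.81e-06), and 2.34% of the probes tested had a more negative difference.

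Sox9, a factor needed to keep the progenitor and duct epithelium, gave a different picture. It was at 3.37 and 2.91 in Dox(+) EBs, against 2.58 and 4.01 in Dox(−) EBs, so both Dox(+) values lay between the Dox(−) ones. The difference was -0.04 with a 95% interval of -0.46 to 0.39 (adjusted p = 0.941), and its sign turned when Dox(−) replicate 2 (0.28) or Dox(+) replicate 2 (0.07) was left out.

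Car2 encodes the cytosolic carbonic anhydrase that provides bicarbonate in duct cells. Its level was 1.37 and 1.29 in Dox(+) EBs, against 2.88 and 2.81 in Dox(−) EBs. It was 2.14-fold lower with Dox (log2 difference -1.10 ± 0.18 SE, adjusted p = 0.000553), with no overlap between the groups. Cftr, the apical chloride and bicarbonate channel, was dim throughout. It was just above background at 0.349 and 0.365 in Dox(+) EBs and at background, at 0.27 and 0.315, in Dox(−) EBs. Its difference of 0.29 did not pass (95% interval -0.14 to 0.73, adjusted p = 0.266).

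Muc1, a membrane mucin of the apical surface, was at 1.62 and 1.70 in Dox(+) EBs, against 1.59 and 2.22 in Dox(−) EBs, which overlapped. The difference of -0.18 did not pass (95% interval -0.50 to 0.15, adjusted p = 0.367), although without Dox(−) replicate 1 it was -0.42 with an adjusted p of 0.0293, and without Dox(−) replicate 2 it was 0.06. Prom1 encodes prominin 1, a membrane protein of apical protrusions. It was at 0.661 and 0.542 in Dox(+) EBs, against 0.558 and 0.492 in Dox(−) EBs, with a difference of 0.19 (95% interval -0.17 to 0.55, adjusted p = 0.379). A brighter Prom1 probe was masked on all 4 EB arrays.

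A further 40 genes of duct biology were listed by role, and 35 had a probe. Of these, 4 rose with Dox, 15 fell and 16 did not pass, beside 20.7% of all probes higher and 22.5% lower. Their median difference was -0.28, against -0.03 over all probes. All 3 measured keratins fell, as did 6 of 12 surface and secreted genes with none rising, while the 11 transport genes split into 2 higher, 4 lower and 5 that did not pass. Of 5 factors 1 rose and 1 fell, and of 4 cilium genes 1 rose and 1 fell. Outside the keratins, calls in either direction were thus about as frequent as the 43.2% over all probes. More of them were falls than rises, however, whereas the 2 directions were near each other over all probes. The list was chosen with earlier results of these data known, so this excess of falls is not independent evidence.

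**Figure D2:**
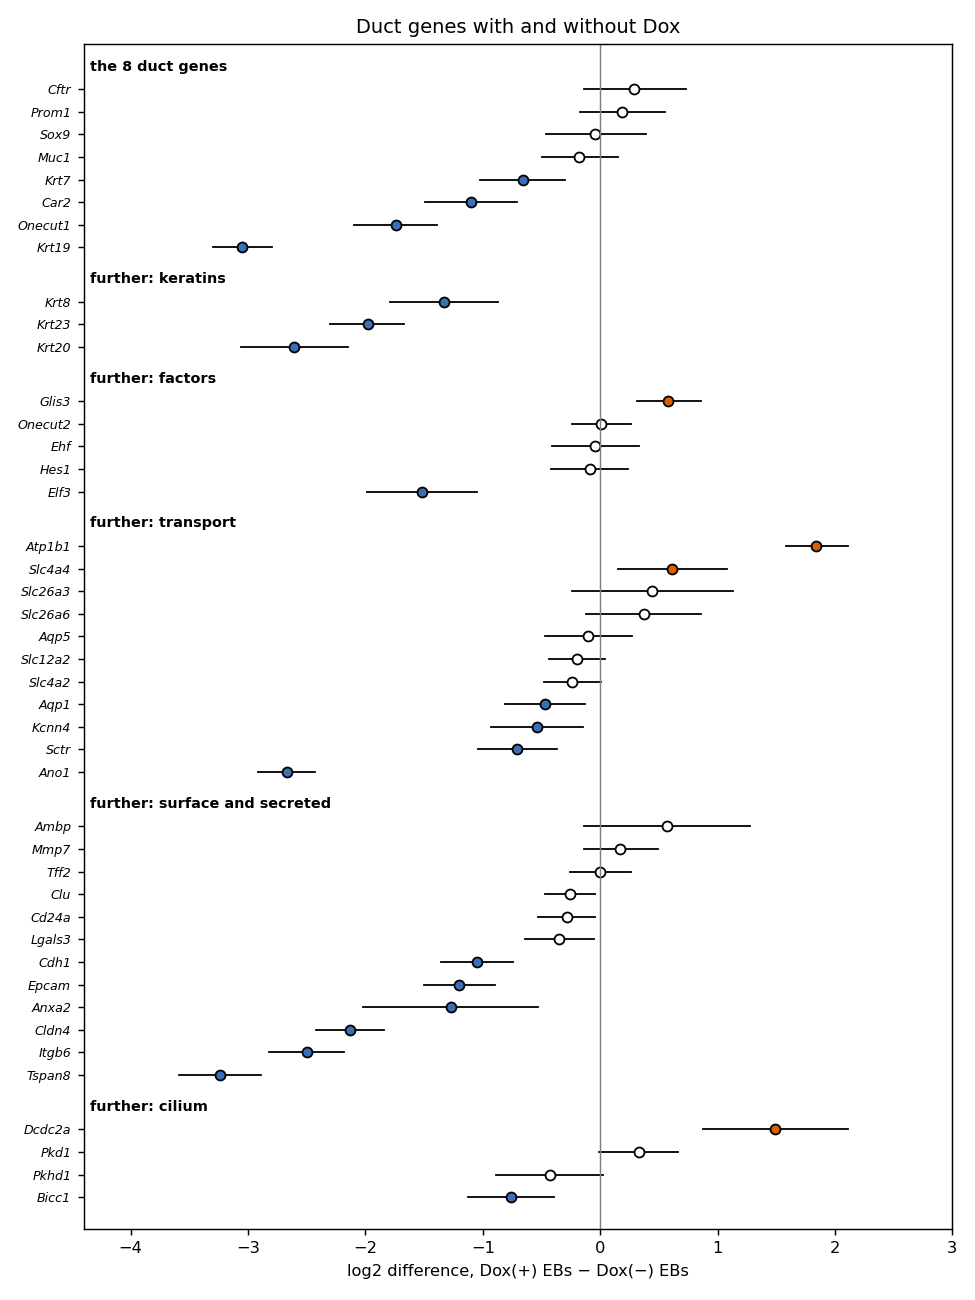
Log2 difference, Dox(+) EBs minus Dox(−) EBs, for the 8 duct genes and 35 further duct genes grouped by role, with 95% intervals of the limma fit (2 arrays per group). Blue points fell, orange points rose and open points did not pass an adjusted p of 0.05. Tspan8 at -3.24, Krt19 at -3.05 and Ano1 at -2.67 lie farthest to the left, and Atp1b1 at 1.84 farthest to the right.

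Among the falls with the smallest adjusted p was Ano1, a calcium-activated chloride channel. It was at 4.29 and 3.62 in Dox(+) EBs, against 24.0 and 26.3 in Dox(−) EBs, or 6.38-fold lower (adjusted p = 2.3e-08). Tspan8, a tetraspanin of gut and duct epithelium, was at 9.68 and 6.72 in Dox(+) EBs, against 77.8 and 74.4 in Dox(−) EBs, or 9.44-fold lower (adjusted p = 7.1e-08). For both genes the Dox(+) and Dox(−) arrays lay far apart, as they did for Krt19. Itgb6, an epithelial integrin subunit, was 5.66-fold lower with Dox (adjusted p = 2.62e-07), and Cldn4, a tight junction claudin, was 4.38-fold lower (adjusted p = 4.42e-07).

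Genes shared by most epithelia fell too, by folds that were smaller than that of Krt19. Krt8, the keratin found in all simple epithelia, was at 27.8 and 20.8 in Dox(+) EBs, against 60.9 and 60.0 in Dox(−) EBs, 2.52-fold lower (adjusted p = 0.000442). Epcam, an epithelial adhesion molecule, was 2.29-fold lower (adjusted p = 4.48e-05), and Cdh1, which encodes E-cadherin, was 2.07-fold lower (adjusted p = 0.000147). The difference between these folds and that of Krt19 was not tested. Krt18 has no probe named for it alone and was not analysed here.

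The 4 genes that rose were the sodium pump subunit Atp1b1, the cilium gene Dcdc2a, the zinc finger factor Glis3 and the sodium bicarbonate cotransporter Slc4a4. Atp1b1 was at 47.7 and 43.1 in Dox(+) EBs, against 12.0 and 13.4 in Dox(−) EBs, 3.58-fold higher (adjusted p = 6.28e-07). Atp1b1 was also bright in βTC6 cells, at 37.7 and 43.5, and in islets, at 37.5 and 30.7. Dcdc2a was 2.81-fold higher (adjusted p = 0.00139), with 1 of the Dox(−) arrays at background. Glis3 was 1.50-fold higher (adjusted p = 0.00341), and Slc4a4 was 1.53-fold higher (adjusted p = 0.0366), a call that failed under quantile normalization (0.0522) and with no filter (0.127). The Slc4a4 call was also lost without Dox(+) replicate 1 (adjusted p = 0.163) or 2 (0.119), Dox(−) replicate 1 (0.244), islet replicate 1 (0.0619) or 2 (0.0589), or E15.5 replicate 1 (0.0639) or 2 (0.0635). With a floor of 1 the rises of Dcdc2a (adjusted p = 0.219) and Glis3 (0.252) did not pass.

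Genes of other tissues were read in the same comparison, in which 20.7% of all probes were higher and 22.5% lower. All 8 hepatocyte genes fell, and their summed level was 66.6 and 56.2 in Dox(+) EBs, against 557 and 552 in Dox(−) EBs. Of this Dox(−) sum, 293 and 242 came from Afp, which was saturated on both arrays. Of 8 intestinal genes 5 fell, with sums of 70.5 and 55.7 in Dox(+) EBs against 332 and 273 in Dox(−) EBs, where Tff3 gave 256, saturated, and 193. Liver and gut genes thus fell on the same arrays as the duct genes that fell, which were not all of them. Of 10 mesenchyme genes 7 fell and 1 rose, with sums of 328 and 339 in Dox(+) EBs against 823 and 875 in Dox(−) EBs, where Col3a1 gave 281 and 294, saturated on both arrays. Of 7 macrophage genes 6 fell, with sums of 6.34 and 5.51 in Dox(+) EBs against 84.2 and 74.9 in Dox(−) EBs. The hepatocyte, intestinal, mesenchyme and macrophage sums were all lower on both Dox(+) arrays than on either Dox(−) array, as were Krt19, Onecut1, Car2 and Krt7.

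Red cell and pancreatic lists were read alike. The 3 erythroid genes tested fell, and the summed level of 4 such genes was 2.21 and 1.93 in Dox(+) EBs, against 8.08 and 8.45 in Dox(−) EBs, with Hba-x at background in the Dox(+) EBs. All 9 endocrine genes rose. Of 10 acinar genes 6 rose, with sums of 27.4 and 31.6 in Dox(+) EBs against 8.56 and 9.24 in Dox(−) EBs, of which Cpa1 alone gave 13.1 and 17.4 in Dox(+) EBs against 0.478 and 0.45 in Dox(−) EBs. Of 6 cartilage and bone genes 2 fell, of 7 neural progenitor genes 2 rose and 2 fell, and of 4 pluripotency genes 1 fell, beside 20.7% of all probes higher and 22.5% lower. Lists this short give imprecise shares. The part of any of these tissues in the duct gene differences was not tested.

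**Figure D3:**
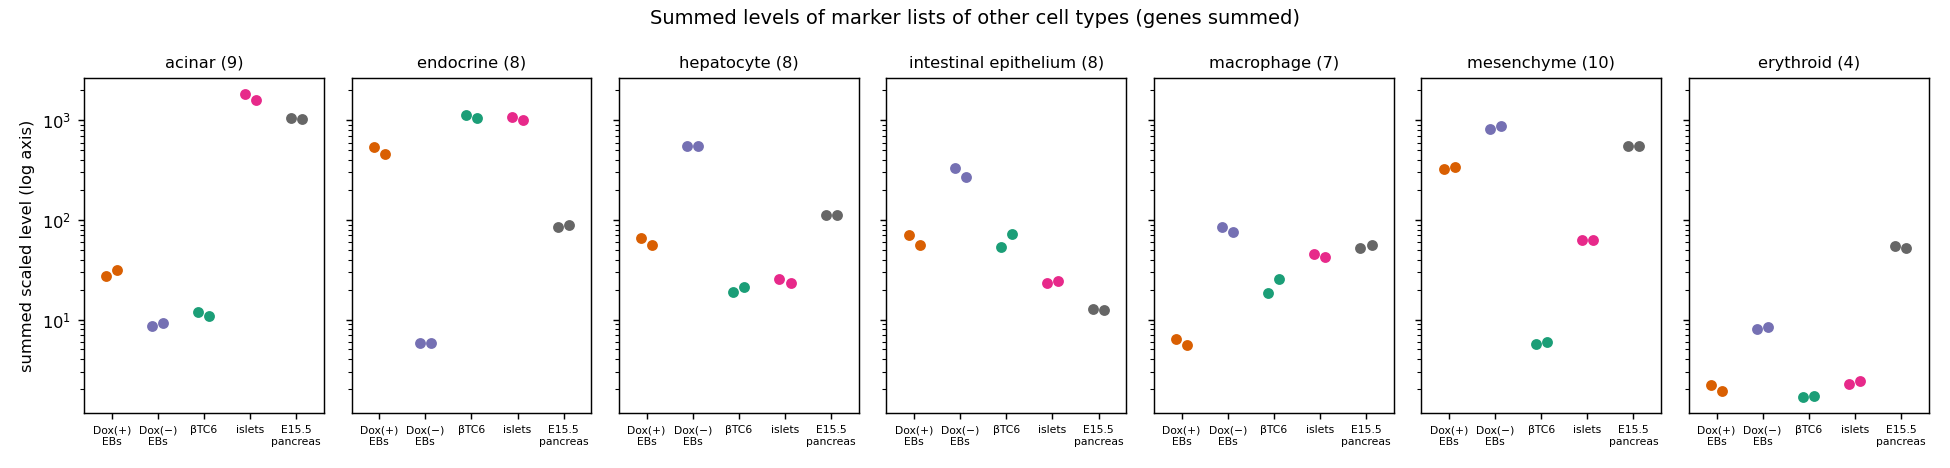
Summed scaled level (log axis) of marker lists of other cell types on each array of the 5 groups, with the number of genes summed in brackets. In Dox(+) EBs the hepatocyte sum was 66.6 and 56.2, against 557 and 552 in Dox(−) EBs, and the acinar sum was 1860 and 1590 in islets, against 1060 and 1040 in E15.5 pancreas. The Dox(−) hepatocyte sum and both of these acinar sums hold saturated genes.

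E15.5 pancreas, whose epithelium is branching at that stage, had all 8 genes above background on both arrays. Its levels were 25.8 and 27.9 for Krt19, 56.9 and 58.0 for Krt7, 7.01 and 6.51 for Sox9, and 1.16 and 0.958 for Onecut1. They were 0.368 and 0.483 for Cftr, 5.45 and 5.08 for Car2, 75.6 and 74.2 for Muc1, and 0.857 and 0.819 for Prom1. Sox9, Car2 and Muc1 were highest here among the 5 groups.

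Dox(+) EBs lay below E15.5 pancreas for 7 of the 8 genes, with 60.0% of all probes passing in this comparison, 33.0% higher and 26.9% lower. Muc1 showed the widest gap, at 1.62 and 1.70 in Dox(+) EBs against 75.6 and 74.2 in E15.5 pancreas, or 45.1-fold lower (adjusted p = 1.11e-09). Car2 was 3.96-fold lower (adjusted p = 4.09e-06), Krt19 2.73-fold lower (adjusted p = 1.47e-06) and Sox9 2.15-fold lower (adjusted p = 0.000545). The apical mucin thus stood much farther from the embryonic pancreas than the keratins and factors did. Muc1 also occurs on acinar cells, and all 10 acinar genes were lower in Dox(+) EBs, with a median difference of -6.02. The summed level of 9 of them was 27.4 and 31.6 in Dox(+) EBs, against 1060 and 1040, partly saturated, in E15.5 pancreas. The part of acinar cells in the Muc1 gap was not tested. Krt7 was 1.93-fold lower (adjusted p = 0.000472), Onecut1 1.69-fold (adjusted p = 0.00187) and Prom1 1.40-fold lower (adjusted p = 0.0243). Cftr did not pass (log2 difference -0.24, 95% interval -0.68 to 0.20, adjusted p = 0.321). The Prom1 call was lost without Dox(+) replicate 2 (adjusted p = 0.159) and without E15.5 replicate 1 (adjusted p = 0.106) or replicate 2 (adjusted p = 0.0696), and with a floor of 1, below which all these Prom1 values lie. The median difference of the 8 genes was -1.03, against 0.07 over all probes. The epithelial gene Epcam was at 66.2 and 57.4 in Dox(+) EBs, against 88.2 and 95.6 in E15.5 pancreas, and the summed mesenchyme level was 328 and 339 in Dox(+) EBs, against 550 and 551 in E15.5 pancreas. Both tissues thus held mesenchymal as well as epithelial RNA, and its part in these differences was not tested.

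Dox(−) EBs stood on both sides of E15.5 pancreas, with 2 genes higher, 5 lower and 1 that did not pass, and 58.5% of all probes passing, 33.6% higher and 24.8% lower. Krt19 was 3.03-fold higher (81.9 and 80.5 in Dox(−) EBs against 25.8 and 27.9 in E15.5 pancreas, adjusted p = 1.01e-06) and Onecut1 was 1.98-fold higher (1.92 and 2.26 in Dox(−) EBs against 1.16 and 0.958 in E15.5 pancreas, adjusted p = 0.000375). Both genes were thus above E15.5 pancreas without Dox and below it with Dox, although with a floor of 0.1 both Onecut1 calls were lost (adjusted p = 0.141 with Dox and 0.0637 without), and the one with Dox was also lost with a floor of 1 (adjusted p = 0.52). Muc1 was 39.8-fold lower (adjusted p = 1.25e-09), Sox9 2.10-fold, Car2 1.85-fold and Prom1 1.60-fold lower, the Prom1 call again being lost with a floor of 1 (adjusted p = 1.0). Cftr, at background in the Dox(−) EBs, was at least 1.43-fold lower (adjusted p = 0.038), a call that also failed under quantile normalization (0.0874), normexp (0.12), other floors and no filter (0.0858). It was lost as well without Dox(−) replicate 1 (adjusted p = 0.175), Dox(+) replicate 1 (0.0599), Dox(+) replicate 2 (0.0595) or E15.5 replicate 2 (0.256). Krt7 was at a difference of -0.29 (adjusted p = 0.148), which became a call under quantile normalization (-0.34) and without βTC6 replicate 1 (adjusted p = 0.0136) or replicate 2 (adjusted p = 0.0134), which share the error estimate of the fit.

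**Figure D4:**
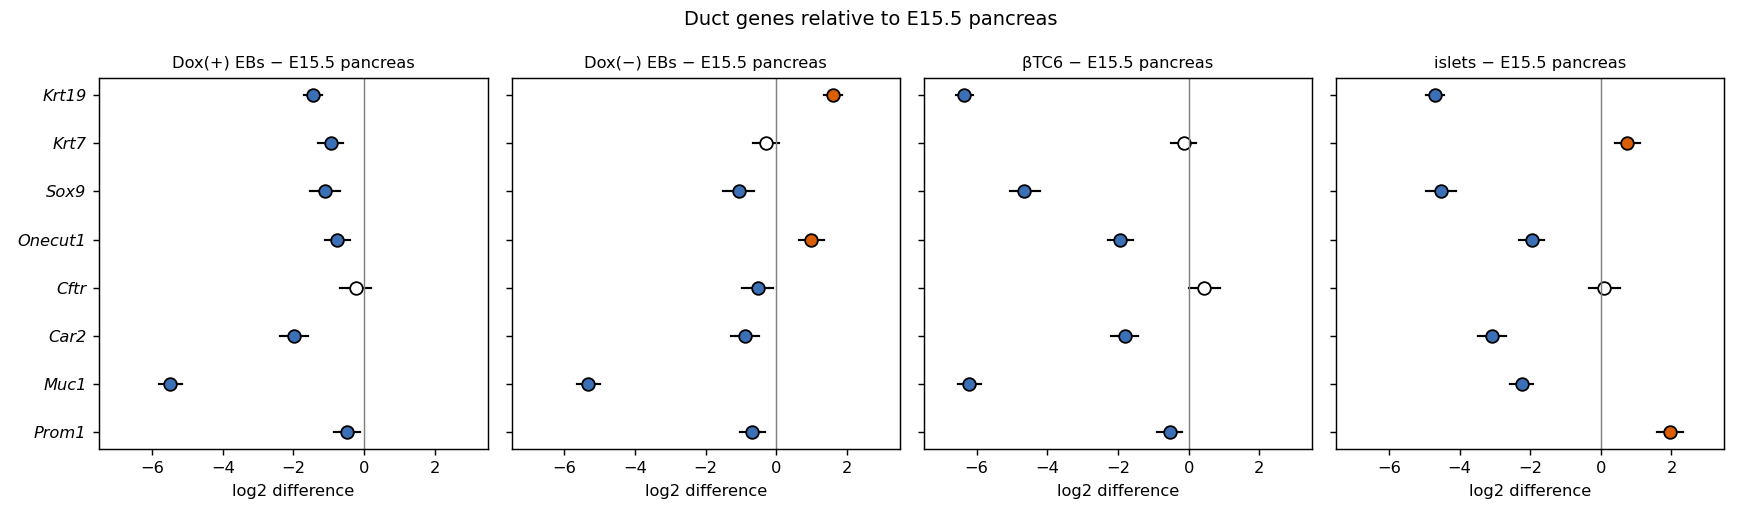
Log2 difference from E15.5 pancreas for the 8 duct genes in Dox(+) EBs, Dox(−) EBs, βTC6 cells and islets, with 95% intervals of the limma fit (2 arrays per group). Blue points were lower, orange points higher and open points did not pass an adjusted p of 0.05. Krt19 and Onecut1 lie right of 0 in Dox(−) EBs alone, and Muc1 lies left of 0 in all 4 panels.

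Of the 35 further duct genes 34 could be tested against E15.5 pancreas. In Dox(+) EBs 6 were higher, 16 lower and 12 did not pass, with a median of -0.55, against 0.07 over all probes, of which 60.0% passed. In Dox(−) EBs 12 were higher, 13 lower and 9 did not pass, with a median of 0.01, against 0.09 over all probes, of which 58.5% passed. These 2 comparisons share the E15.5 arrays. Tspan8 was 3.58-fold higher in Dox(+) EBs (adjusted p = 3.03e-06) and 33.8-fold higher in Dox(−) EBs (adjusted p = 2.72e-09) than in E15.5 pancreas. Ano1 was 4.92-fold lower in Dox(+) EBs (adjusted p = 4.54e-08) and 1.29-fold higher in Dox(−) EBs (adjusted p = 0.0141). Dcdc2a, although it rose with Dox, was 7.90-fold lower in Dox(+) EBs than in E15.5 pancreas (adjusted p = 5.56e-06).

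Islets differed from E15.5 pancreas in 7 of the 8 genes, 2 higher and 5 lower, while 65.0% of all probes passed, 32.4% higher and 32.5% lower. Krt19 was at 1.15 and 0.945 in islets, against 25.8 and 27.9 in E15.5 pancreas, 25.8-fold lower (adjusted p = 2.15e-10). Sox9 was at background on 1 islet array and at 0.314 on the other, with a difference of -4.54 (adjusted p = 8.58e-09) whose size rests on the floor, and Onecut1 was at background on both, at least 3.90-fold lower (adjusted p = 1.33e-06), a call lost with a floor of 1 (adjusted p = 0.496). Car2, at 0.583 and 0.659, was 8.49-fold lower (adjusted p = 8.65e-08). The trunk factors were therefore at or near background in islets.

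The keratin Krt7 and Prom1 went the other way. Krt7 was at 102 and 91.1 in islets and was 1.68-fold higher than in E15.5 pancreas (adjusted p = 0.00201). Prom1 was at 3.44 and 3.08 in islets, against 0.857 and 0.819 in E15.5 pancreas, 3.89-fold higher (adjusted p = 1.54e-06). Its second probe gave the same direction, at 17.7 and 17.1 in islets, against 6.26 and 6.27 in E15.5 pancreas, 2.78-fold higher (adjusted p = 7.05e-06). Muc1, at 17.0 and 14.7 in islets, was 4.73-fold lower (adjusted p = 2.38e-07) but stood well above its EB levels. Cftr was at 0.521 and 0.394 in islets, with a difference of 0.10 (adjusted p = 0.68).

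The islet arrays also carried exocrine signal. The summed level of 9 acinar genes was 1860 and 1590 in islets, against 1060 and 1040 in E15.5 pancreas, and 12.0 and 10.9 in βTC6 cells. On the islet arrays 7 of the 10 listed acinar genes, such as the amylase gene Amy2a5, had saturated spots and none was at background. In E15.5 pancreas Amy2a5, Cpa1 and Cela3b were saturated on both arrays, so the sums of both tissues hold capped values. Of the 10 genes 5 were higher in islets than in E15.5 pancreas and 2 did not pass. The acinar factors Ptf1a, Rbpjl and Bhlha15 were lower, beside 32.4% of all probes higher and 32.5% lower. The part of the exocrine signal in the islet levels of Muc1, Krt7 and Prom1 was not tested. Of the further duct genes tested, 7 were higher in islets than in E15.5 pancreas, 17 lower and 10 did not pass, beside 65.0% of all probes passing. Tspan8 was at 36.0 and 31.5 in islets, 14.9-fold higher (adjusted p = 6e-09), whereas Ano1 was 6.62-fold lower (adjusted p = 6.28e-09) and Itgb6 5.52-fold lower (adjusted p = 1.05e-07). Tff2, a trefoil peptide of mucous cells that was picked after its values were seen, was at 61.8 and 62.9 in islets, against 2.22 and 2.39 in E15.5 pancreas, and at background in all other groups.

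βTC6 cells had no duct gene above its E15.5 level by the test: 6 were lower and 2 did not pass, with 65.6% of all probes passing, 41.8% higher and 23.8% lower. Krt19 was at background on both arrays, at 0.331 and 0.325, and at least 81.8-fold lower than in E15.5 pancreas (adjusted p = 2.19e-11). Sox9 was at background as well, at least 21.5-fold lower (adjusted p = 6.72e-09), as was Onecut1, at least 3.35-fold lower (adjusted p = 1.4e-06), a call lost with a floor of 1 (adjusted p = 0.49). Krt19, Sox9 and Onecut1 were therefore at background together in this line. Muc1, at 1.00 and 1.01, was 74.5-fold lower (adjusted p = 1.24e-10). Car2, at 1.84 and 1.21, was 3.51-fold lower (adjusted p = 5.22e-06). Prom1, at 0.522 and 0.632, was 1.46-fold lower (adjusted p = 0.0124), a small difference that rested on single arrays. That Prom1 call was lost without βTC6 replicate 1 (adjusted p = 0.0699) or E15.5 replicate 1 (adjusted p = 0.0655) and with a floor of 1, and its second probe did not pass, at 5.90 and 4.73 in βTC6 cells (adjusted p = 0.104). Cftr was at 0.528 and 0.621, its highest level in the series, with a difference of 0.44 that did not pass (adjusted p = 0.0714) but passed without E15.5 replicate 2 (adjusted p = 0.0388).

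Krt7 was bright in βTC6 cells, at 42.0 and 64.5, with the widest spread between replicates among the groups. Its difference from E15.5 pancreas was -0.14 and did not pass (adjusted p = 0.473), whereas under quantile normalization it was -0.83 and passed, and without βTC6 replicate 2 it was -0.45 and passed (adjusted p = 0.0037). Set against βTC6 cells, Krt7 was 1.75-fold lower in Dox(+) EBs (adjusted p = 0.00122), a call lost under quantile normalization, where the difference was -0.07. In Dox(−) EBs the difference from βTC6 cells was -0.15 (adjusted p = 0.442), but it was 0.48 and passed under quantile normalization (adjusted p = 0.006), so the order of these groups for Krt7 depends on the scaling.

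Between βTC6 cells and islets, whose arrays came from 1 slide range, 1 gene was higher in βTC6 cells, 4 were lower and 3 did not pass, with 66.1% of all probes passing, 39.1% higher and 27.0% lower. Car2 was 2.41-fold higher in βTC6 cells (1.84 and 1.21 in βTC6 cells against 0.583 and 0.659 in islets, adjusted p = 8.21e-05). Muc1 was 15.7-fold lower (adjusted p = 3.32e-09), Prom1 5.67-fold (adjusted p = 2.1e-07), Krt19 at least 3.18-fold (adjusted p = 2.96e-07) and Krt7 1.85-fold lower (adjusted p = 0.0006). With a floor of 1, Krt19 lost its call (adjusted p = 0.523), since 3 of its 4 values then lie at the floor.

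Set against islets, Dox(+) EBs had 4 genes higher and 3 lower, with 68.0% of all probes passing, 36.4% higher and 31.6% lower, and Dox(−) EBs had 4 higher and 4 lower, with 69.9% passing, 37.6% higher and 32.3% lower. Krt19, Sox9, Onecut1 and Car2 were higher in both EB groups and Krt7, Muc1 and Prom1 lower. With a floor of 1 the calls of Onecut1 (adjusted p = 1.0) and Car2 (adjusted p = 0.139) were lost in Dox(+) EBs. Krt19 was 9.44-fold higher in Dox(+) EBs (adjusted p = 1.96e-09) and 78.0-fold higher in Dox(−) EBs (adjusted p = 1.85e-11) than in islets. The Sox9 differences of 3.43 in Dox(+) EBs (adjusted p = 7.02e-08) and 3.47 in Dox(−) EBs (adjusted p = 5.19e-08) rest on the floor, since 1 islet array was at background. Prom1 was 5.44-fold lower in Dox(+) EBs (adjusted p = 2.61e-07) and 6.22-fold lower in Dox(−) EBs (adjusted p = 1.16e-07). Against βTC6 cells, 4 genes were higher and 2 lower in Dox(+) EBs, with 62.9% of all probes passing, 25.5% higher and 37.5% lower, and 5 were higher and 1 lower in Dox(−) EBs, with 66.6% passing, 28.7% higher and 37.9% lower. Krt19 was at least 30.0-fold higher in Dox(+) EBs and at least 248-fold higher in Dox(−) EBs than in the βTC6 line (adjusted p = 1.7e-10 and 3.53e-12). Car2 in Dox(+) EBs was at a difference of -0.17 from βTC6 cells (adjusted p = 0.429), which passed at -0.47 without βTC6 replicate 2 (adjusted p = 0.0114).

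Cftr was among the lower genes here. It was at least 1.53-fold lower in Dox(−) EBs than in islets (adjusted p = 0.0138), a call lost without Dox(−) replicate 1 (adjusted p = 0.0833) or islet replicate 1 (adjusted p = 0.114) and with normexp and quantile normalization (adjusted p = 0.0581). In Dox(+) EBs it was 1.60-fold lower than in βTC6 cells (adjusted p = 0.0111), a call lost without Dox(+) replicate 1 (adjusted p = 0.0624) or βTC6 replicate 2 (adjusted p = 0.0575) and with a floor of 0.1 (adjusted p = 0.0797). With a floor of 1 no Cftr call was left in either EB group, since all its values lie below 1.

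The order of levels over the 5 groups separated the genes. For Krt19 the order was Dox(−) EBs, E15.5 pancreas, Dox(+) EBs, islets and βTC6 cells, and all 4 pairs of neighbours differed. Onecut1 began in the same order, with βTC6 cells and islets both at background at the end. For Sox9 the order was E15.5 pancreas, Dox(−) EBs, Dox(+) EBs, islets and βTC6 cells, where neither the EB groups (adjusted p = 0.941) nor islets and βTC6 cells (adjusted p = 0.66) differed by the test, although islets were above βTC6 cells with a floor of 0.1 (adjusted p = 0.00538) and with normexp and quantile normalization (adjusted p = 0.0485). Both βTC6 arrays and 1 islet array were at background for Sox9, so these calls rest in part on values not above their surroundings. For Car2 the order was E15.5 pancreas, Dox(−) EBs, βTC6 cells, Dox(+) EBs and islets, and only βTC6 cells and Dox(+) EBs did not differ as neighbours.

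The other genes ran differently. Muc1 was highest in E15.5 pancreas, then islets, Dox(−) EBs, Dox(+) EBs and βTC6 cells, with only the EB groups not differing as neighbours. Prom1 was highest in islets and then E15.5 pancreas, and its remaining 3 groups did not differ as neighbours. Krt7 was highest in islets, followed by E15.5 pancreas, βTC6 cells, Dox(−) EBs and Dox(+) EBs, and spanned only 3.24-fold from top to bottom, whereas Krt19 spanned at least 248-fold. For Krt7, βTC6 cells did not differ from either neighbour, and their place in the order depends on the scaling. For Cftr no pair of neighbours differed.

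Across the 10 arrays, which form 5 pairs of replicates and so are not independent points, the log2 levels of Krt19 correlated with those of Onecut1 at a Pearson r of 0.96 and with those of Sox9 at 0.91, while Krt7 went with Prom1 at 0.82 and with Krt19 at -0.37. Cftr, dim throughout, ran opposite to these 3 genes, at -0.81 with Krt19, -0.78 with Onecut1 and -0.63 with Sox9. Among 17438 single-symbol probes the 2 closest to each gene were Obsl1 (0.997) and Sorbs3 (0.996) for Krt19, Cdh3 (0.997) and Parp14 (0.997) for Onecut1, Bcl11b (0.995) and Fbn2 (0.994) for Sox9, and AU020206 (0.993) and Pygl (0.983) for Car2. They were Gstt1 (0.988) and Olfr457 (0.984) for Krt7, Fmo5 (0.992) and Sypl2 (0.991) for Muc1, Cyp4v3 (0.996) and Ildr1 (0.993) for Prom1, and Wrnip1 (0.962) and Eif4e (0.946) for Cftr. Cdh3, which encodes P-cadherin, was at 0.849 and 0.729 in Dox(+) EBs, against 2.35 and 3.24 in Dox(−) EBs. On all βTC6 and islet arrays Cdh3, Parp14 and Bcl11b lay at the floor of 0.27, where Onecut1 and Sox9 were at or near it. Fmo5 lay at the floor in Dox(+) EBs, in βTC6 cells and on Dox(−) replicate 1. The correlations of these genes thus rest in part on floored values.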

How the data were processed

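Total RNA of 10 samples was hybridised to 1-colour CodeLink mouse arrays. The deposited values are intensities: the authors' scanner software (CodeLink Expression Analysis 4.1.0.29054, per the file headers) took each spot's mean, less its local background median, and scaled it to an array median of 1. The table of all samples and the single files did not differ (largest difference 0). A later filtering step in the authors' methods was not repeated here. Control spots (1260 of 36227) were left out, and masked, contaminated or irregular spots were set missing. Probes were named through the annotation and the GRCm38.p6 symbol table, and 21615 had 1 symbol, 681 several and 12671 none.

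Levels were floored at 0.27, and limma 3.58.1 in R 4.3.3 (trend and robust eBayes, 5 residual degrees of freedom) was fitted to log2 values of all 10 arrays with 1 mean per group, over 28259 probes. A probe entered if 1 or more groups had it above background on both arrays. P-values are two-sided and were adjusted by Benjamini-Hochberg over all probes of a contrast, with 0.05 as the threshold. All 8 measured duct genes passed that filter. "At least" marks a fold whose lower group had both arrays at background, taken against the higher of the lowest signal above background and the probe's own. Of the 40 further duct genes, values are given for up to 4 with the smallest adjusted p in each direction with Dox, plus Krt8, Krt18, Epcam and Cdh1, and 1 item of this rule is not reported here. The duct genes, the further lists and the marker lists were chosen with earlier results of these data known. Like genes were ranked by Pearson correlation over the 10 arrays. The fit was tested on simulated data, drawn without a floor for probes above background on all arrays. That test did not cover genes with arrays at background. Alternatives were floors of 0.1 and 1, quantile normalization alone or after normexp (offset 50), no filter and a stricter filter on background, no trend or robust weights, a replicate block, keeping contaminated and irregular spots, the mean of a gene's probes, EB arrays alone, and leaving out each array. The number of arrays limits the precision. Tables were made with pandas 2.3.3 and numpy 2.4.6 in Python 3.11.15, and plots with matplotlib 3.10.9.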

Additional observations from a re-analysis of the deposited data

How the results depend on the processing

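With only probes above background on all arrays, 4 of the 8 duct genes and 21 further duct genes could be fitted, and by that construction fewer were called. The calls among the 8 genes were then 2 rather than 4 for Dox(+) minus Dox(−) EBs, 4 rather than 7 for Dox(+) EBs minus E15.5 pancreas, 4 rather than 7 for Dox(+) EBs minus islets, 2 rather than 6 for Dox(+) EBs minus βTC6 cells, 3 rather than 7 for Dox(−) EBs minus E15.5 pancreas, 4 rather than 8 for Dox(−) EBs minus islets, 2 rather than 6 for Dox(−) EBs minus βTC6 cells, 4 rather than 7 for islets minus E15.5 pancreas and 3 rather than 6 for βTC6 cells minus E15.5 pancreas. The further duct genes called were 11 rather than 19, 12 rather than 22, 15 rather than 25 and 13 rather than 24 for Dox(+) minus Dox(−) EBs and for Dox(+) EBs, Dox(−) EBs and islets minus E15.5 pancreas. The other alternatives kept these counts within 1.5 times. Leaving out 1 array gave 3 to 4 calls for Dox(+) minus Dox(−) EBs, 6 to 7, 7 and 5 to 6 for Dox(+) EBs minus E15.5 pancreas, islets and βTC6 cells, 6 to 8, 7 to 8 and 6 to 7 for Dox(−) EBs in the same order, 7 for islets minus E15.5 pancreas, and 5 to 7 and 5 for βTC6 cells minus E15.5 pancreas and islets. For the further duct genes it gave 15 to 21, 21 to 25, 21 to 26 and 20 to 24 calls in the order above.

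Differences of single genes were counted once per alternative, so 1 gene in 1 comparison can count several times. Of these cases, 12 turned their sign, all of them in differences that had not passed. They were Krt7 in Dox(−) EBs minus βTC6 cells (0.48 with quantile normalization and 0.48 with normexp before it, and -0.46 to 0.16 on leaving out 1 array with the highest without βTC6 replicate 2) and in βTC6 cells minus E15.5 pancreas (-0.45 to 0.17, the highest without βTC6 replicate 1), Sox9 with Dox (-0.35 to 0.28, above 0 without Dox(−) replicate 2 and, at 0.07, without Dox(+) replicate 2), Muc1 with Dox (-0.42 to 0.06, the highest without Dox(−) replicate 2), Cftr in islets minus E15.5 pancreas (-0.10 to 0.30, below 0 without islet replicate 1 and, at -0.09, without E15.5 replicate 1), Car2 in Dox(+) EBs minus βTC6 cells (-0.47 to 0.13, the highest without βTC6 replicate 1), and Prom1 in Dox(+) EBs minus βTC6 cells (-0.08 to 0.20, below 0 without Dox(+) replicate 1 or βTC6 replicate 1). In a further 52 cases, counted the same way, the call was lost, in 13 one was gained and in 1699 neither, and the causes were not tested. With quantile normalization the median of all probes was 0.05 rather than 0.21 for βTC6 cells minus E15.5 pancreas, 0.00 rather than 0.12 for βTC6 cells minus islets and 0.00 rather than -0.11 for Dox(+) EBs minus βTC6 cells. The share of calls that were higher was then 53.2% (52.5% after normexp) rather than 63.7% for βTC6 cells minus E15.5 pancreas.

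The replicate numbers did not pair the arrays, since the correlations between same-numbered deviations were -0.081 to 0.067, and the replicate block left 4 calls with Dox and every other count of the 8 genes as it was. No slide held more than 1 array, so the slide could not be used as a block. The mean of the probes of a gene could change Prom1 alone and gave no value in EBs. Median net signals of 1.66 to 2.63 times the background limit Cftr, Onecut1, Sox9 and Krt19, whose lowest groups lay at background. For Krt19 this group was βTC6 cells alone.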
